A study of Mus musculus with 22 samples.

Results

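The genes described here make, take up or use purine nucleotides, and they were followed while primed epiblast stem cells of the mouse (mEpiSCs) went back to naive pluripotency. They are 10 of the 34489 genes in the deposited table, taken by their symbols, and all 10 were found. Slc29a1 encodes an equilibrative nucleoside transporter and Adk encodes adenosine kinase. Ppat, Gart, Pfas, Paics, Adsl and Atic encode enzymes of de novo purine synthesis, and Ampd2 and Ampd3 encode AMP deaminases.

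AICAR, one of the AMPK activators used for the reversion, is itself a purine nucleoside. It enters cells through nucleoside transporters and is phosphorylated by adenosine kinase to ZMP, which mimics AMP at AMP-activated protein kinase (AMPK). ZMP is also a natural intermediate of de novo purine synthesis: the earlier enzymes from Ppat to Adsl make it and Atic uses it to make IMP. AMP deaminase turns AMP into IMP.

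Bulk mRNA-seq was available for 22 libraries, each from a different combination of line, treatment, day and passage, so no exact condition was repeated. The naive group was 1 library of Rex1-GFP mESCs, and the primed group was 1 library of Oct4GIP mEpiSCs and 1 of 129/MSM mEpiSCs. Naive and Oct4GIP cells are labelled as strain 129/Ola. Oct4GIP cells carry a GFP and puromycin transgene driven by Oct4 sequences, and the 129/MSM line came from an MSM/Ms male and a 129X1/SvJ female. Per the paper's methods, Oct4GIP mEpiSCs were maintained on fibronectin and 129/MSM mEpiSCs on mouse embryonic fibroblast feeders (MEF). Their media differed, and both held FGF2 and Activin A. For the reversion, Oct4GIP cells were first plated on MEF for 1 day. They were then cultured there in Basal medium alone or with 2iL (inhibitors of MEK and GSK3 with leukemia inhibitory factor, LIF), AICAR or AICAR+LIF. Whole cultures were collected on day 8 (d8, 4 libraries) and day 16 (d16, 4 libraries). Reverted cells were d16 cultures grown on in 2iL, on gelatin per the methods. They had 2 or 3 passages (4 libraries, Oct4GIP with AICAR or AICAR+LIF) or 10 passages (7 libraries). Feeders and base medium thus differed between these groups and between the primed lines, and cannot be told apart from state. The 10-passage libraries came from Oct4GIP cells reverted by AICAR or A769662, each with and without LIF, or by metformin+LIF, and from 129/MSM cells reverted by AICAR with and without LIF. A769662 is a direct AMPK activator, and metformin activates AMPK indirectly.

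Library totals ran from 438771 counts in AICAR+LIF d8 to 5290163 in Basal d16, and AICAR d8 (956357) was the next lowest. The spread within a group holds differences of treatment, passage and line as well as technical error. The state of each group was checked with marker genes. The summed level of 7 naive markers was 2900 to 4940 counts scaled to a common library size (CPM) in the 11 reverted libraries and 4130 CPM in the naive library, and it was at most 24.6 CPM in the primed, d8 and d16 libraries. The 3 general pluripotency markers (Pou5f1, Sox2 and Nanog) summed to 574 and 1120 CPM in the primed libraries but to 133 to 316 CPM at d8 and d16. They did not move alike: against primed cells, Pou5f1 (log2 fold change −6.5) and Nanog (−3.53) were lower at d8 and d16. Sox2 was higher there, by 1.65 ± 0.33 (SE, adjusted p = 0.000579, edgeR's quasi-likelihood test). All 10 fibroblast markers were detected at d8 and d16, at a sum of 2670 to 3320 CPM at d8 and 5470 to 49300 CPM at d16. That sum was 31.6 and 529 CPM in the primed libraries and 6.32 to 90.9 CPM in the reverted ones, where Twist2 and S100a4 were at 0. The 5 primed markers (Fgf5, Otx2, Pou3f1, Dnmt3b and Fgf8) summed to 375 CPM in primed Oct4GIP and 1690 CPM in primed 129/MSM. At d8 and d16 that sum was 12.8 to 121 CPM. After 2 or 3 passages it was 430 to 595 CPM, above primed Oct4GIP, and after 10 passages 52.1 to 226 CPM. By this list the early reverted libraries were not clear of primed cells. A level in these bulk libraries cannot tell fewer cells of a type from less RNA per cell.

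All levels below are CPM scaled by TMM factors (trimmed mean of M-values). Per kilobase of exon, the only scale on which genes are compared with each other here, the mean levels in the primed libraries were highest for Paics at 131 and Gart at 43.2. Ppat followed at 20, Adsl at 18.1, Ampd2 at 15.9, Atic at 14.6, Slc29a1 at 14.3, Pfas at 13.9 and Adk at 10.0, and Ampd3 was last at 0.421. Paics, Gart and Ppat were again the highest of the de novo genes in the 10-passage libraries, while the order of the other 3 was the reverse. There Paics was at 185, Gart at 71.3, Ppat at 40.3, Pfas at 33.0, Atic at 29.0 and Adsl at 26.6 CPM per kilobase. Adk at 3.25 and Ampd3 at 1.62 were lowest there.

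**Figure D1:**
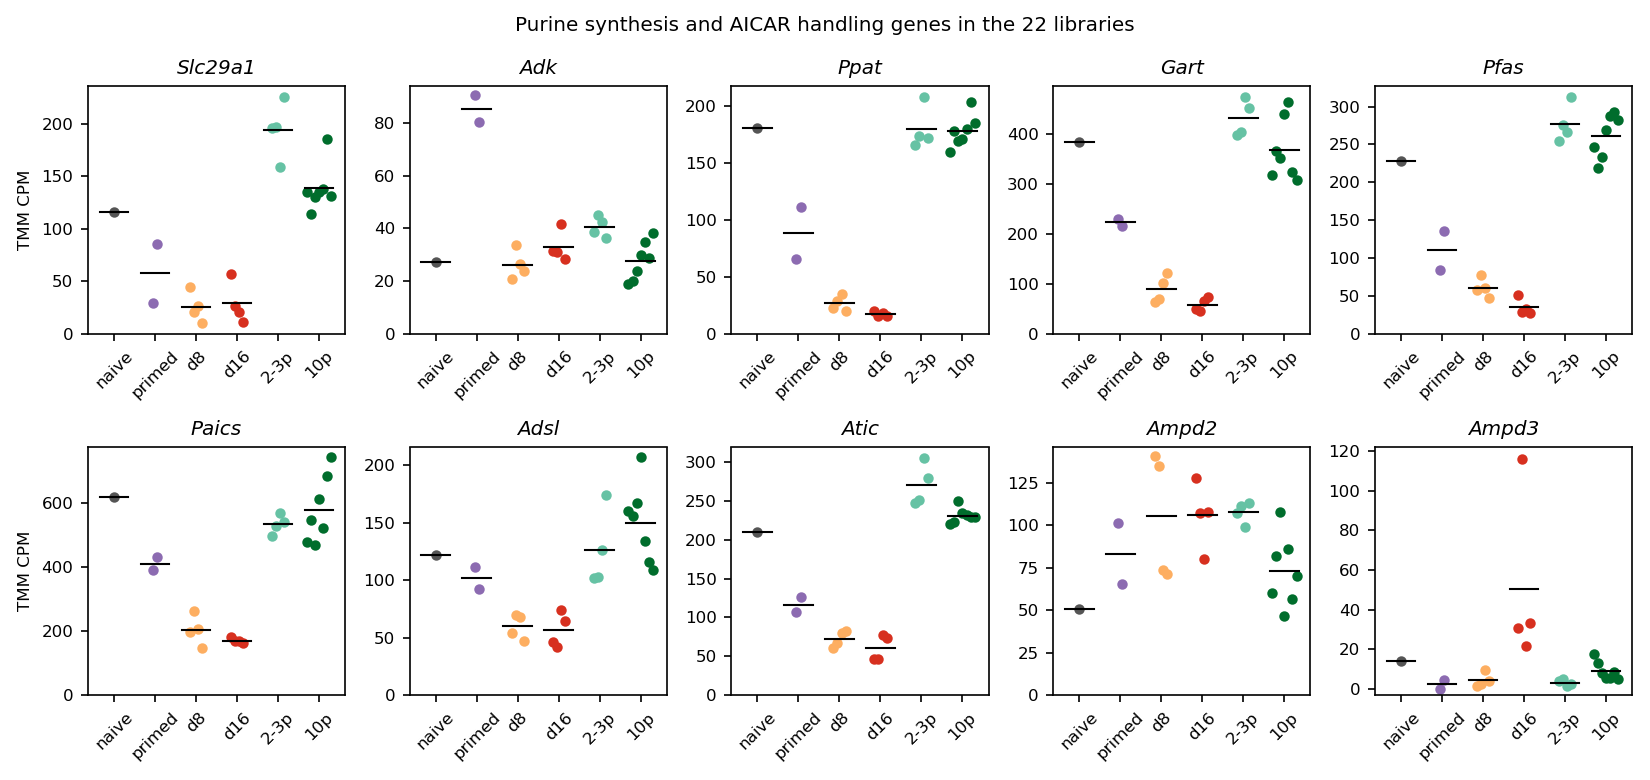
Levels of the 10 genes (TMM CPM, linear axes from 0, slightly below 0 for Ampd3) in each of the 22 libraries. A dot is 1 library and a bar is the mean of its group: naive (1), primed (2), d8 (4), d16 (4), reverted after 2 or 3 passages (2-3p, 4) and reverted after 10 passages (10p, 7). By group mean, the 6 de novo genes and Slc29a1 are lower at d8 and d16 than in the naive, primed and reverted groups, Adk is highest in the primed group and Ampd3 at d16.

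Because the de novo genes moved together, their promoters were read for 2 motifs: the E-box CACGTG, which MYC and related factors bind, and the NRF1 motif (GCGCA, any base, then GCGC), on both strands. RefSeq promoters on GRCm38.p6, from 250 bases before to 50 after each start, were matched for 9 of the 10 genes, with 20 starts in all. Pfas was not matched. The E-box was found in at least 1 promoter of 4 genes (Atic, Paics, Slc29a1 and Ampd3) and in 4 of their 20 promoters, against 7.15% of 32817 promoters, and the NRF1 motif was found in 2 genes (Ppat and Adk) and 2 promoters, against 4.59%. Each match is shown with 30 bases around it, on the strand of its gene, with the motif in capitals.
Atic E-box: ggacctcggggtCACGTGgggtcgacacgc
Paics E-box: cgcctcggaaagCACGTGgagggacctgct
Slc29a1 E-box: gagcagcgccagCACGTGgcgcgcatgggc
Ampd3 E-box: ccagcagtgggtCACGTGtcagctctgtaa
Ppat NRF1: gcttcccgccGCGCAGGCGCgctgacgcga
Adk NRF1: cactccctgaGCGCAGGCGCtcacccgcag
The Atic window is at chr1:71557137-71557166 on the plus strand, with its motif at −7 from the RefSeq start, across the first bases of the gene as GENCODE M21 places it. The Paics window is at chr5:76951087-76951116 on the plus strand (−203) and the Ppat window at chr5:76951601-76951630 on the minus strand (−42). These 2 genes lie head to head and overlap by 272 bases, so each window lies within the other gene, and without strand the reads of the shared stretch cannot be told apart. The Slc29a1 window is at chr17:45595304-45595333 on the minus strand (−75), the Ampd3 window at chr7:110772514-110772543 on the plus strand (−78) and the Adk window at chr14:21052400-21052429 on the plus strand (−164). Gart, Adsl and Ampd2 had neither motif in these windows. A match is a description of the letters only.

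In GENCODE M21 (GRCm38) Atic lies at chr1:71557150-71579631, Ppat at chr5:76913249-76951578, Paics at chr5:76951307-76967509 and Gart at chr16:91621186-91646952. Pfas lies at chr11:68985697-69008460 and Adsl at chr15:80948490-80970946. Adk spans chr14:21052574-21448569 and Slc29a1 chr17:45585200-45599606. The AMP deaminase genes are Ampd2 at chr3:108074062-108086651 and Ampd3 at chr7:110768206-110812405. Counts were taken over the transcripts of each gene, exons and UTRs together.

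Slc29a1, the nucleoside transporter, was at 29.4 CPM in primed Oct4GIP and 85.3 CPM in primed 129/MSM. In the 7 libraries of 10 passages it ran from 114 CPM (AICAR+LIF) through a median of 135 CPM to 185 CPM (AICAR in 129/MSM). All 7 were above both primed libraries, and the log2 fold change was 1.26 ± 0.45 (SE, adjusted p = 0.0329, edgeR's quasi-likelihood test). The primed libraries differed from each other by 1.52 on the log2 scale, and without primed Oct4GIP the value was 0.70 with an adjusted p of 0.38.

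Adk, the kinase that phosphorylates AICAR and adenosine, moved the other way. It was at 90.5 and 80.5 CPM in the primed libraries of Oct4GIP and 129/MSM and at 18.8, 28.6 and 38.4 CPM (lowest, median, highest) after 10 passages. No reverted library reached the primed level. The log2 fold change was −1.62 ± 0.22 (adjusted p = 8.29e-06, edgeR), or 3.07-fold lower, and the call held under all 19 alternatives tried.

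Among the 6 de novo genes, 5 were higher after 10 passages than in primed cells. Ppat encodes the amidotransferase of the committed first step. It was at 65.9 and 111 CPM in the primed libraries and at 160, 178 and 204 CPM (lowest, median, highest) after 10 passages, a log2 fold change of 1.01 ± 0.19 (adjusted p = 0.000355, edgeR). Pfas, the FGAM synthase, was at 84.6 and 135 CPM and then at 219, 269 and 293 CPM, with the greatest log2 fold change of the 6 at 1.25 ± 0.23 (adjusted p = 0.00028, edgeR). Atic, which carries the last steps through ZMP to IMP, was at 107 and 126 CPM and then at 221, 230 and 250 CPM, a log2 fold change of 0.99 ± 0.19 (adjusted p = 0.000393, edgeR). The groups did not overlap for any of these 3 genes, and their calls held under all 19 alternatives. The share of all tested genes without overlap in this comparison was not counted.

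Gart encodes a trifunctional enzyme of the early steps. It was at 229 and 216 CPM in the primed libraries and at 307, 351 and 463 CPM after 10 passages, a log2 fold change of 0.72 ± 0.23 (adjusted p = 0.0159, edgeR). Paics carries the carboxylase and SAICAR synthase steps, and it was at 391 and 431 CPM and then at 470, 546 and 744 CPM, a log2 fold change of 0.50 ± 0.19 (adjusted p = 0.0433, edgeR). These groups also did not overlap, but the calls were less firm. Gart lost its call when either primed library was left out (adjusted p = 0.0796 without Oct4GIP and 0.119 without 129/MSM). Paics lost it without primed Oct4GIP (0.239), without primed 129/MSM (0.101) and without any 1 of 4 reverted libraries (A769662+LIF, metformin+LIF and both 129/MSM libraries, 0.0536 to 0.0683), and it was called under 7 of 19 alternatives. Adsl, the adenylosuccinate lyase that makes ZMP, was at 111 and 92.2 CPM and then at 109, 156 and 207 CPM, so the groups overlapped, and its log2 fold change of 0.56 ± 0.26 did not pass (adjusted p = 0.0971, edgeR).

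Neither AMP deaminase passed. Ampd2 was at 101 and 65.1 CPM in the primed libraries and at 46.4, 70.2 and 108 CPM after 10 passages. Ampd3 had 0 counts in primed Oct4GIP, which allows up to 3 counts or 1.16 CPM (counting error only), and 15 counts or 4.74 CPM in primed 129/MSM. It was at 5.10, 8.32 and 17.7 CPM after 10 passages, above both primed libraries, with a log2 fold change of 1.84 ± 0.86 (adjusted p = 0.101, edgeR). Without primed 129/MSM the primed side has no count of Ampd3, and no fold is given.

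In all, 6 of the 10 genes were called higher and 1 lower in reverted cells of 10 passages than in primed cells, against 36.6% of 18739 tested genes called in either direction and 16.7% called higher. The median log2 fold change of the 6 de novo genes was 0.86, against −0.01 for all genes tested. Without primed Oct4GIP the number of the 10 genes called was 4.

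The single naive library, which entered no test, was within the range of the 10-passage libraries for 9 of the 10 genes. The share of all genes for which it was within the range was not counted. It had Ppat at 181 CPM, Gart at 384 CPM, Pfas at 228 CPM, Paics at 618 CPM, Adsl at 122 CPM, Slc29a1 at 116 CPM and Adk at 27.3 CPM. Only Atic was outside, at 210 CPM against 221 CPM in the lowest of the 7. Its Ampd2 at 50.9 CPM and Ampd3 at 14.0 CPM were also within the range.

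**Figure D2:**
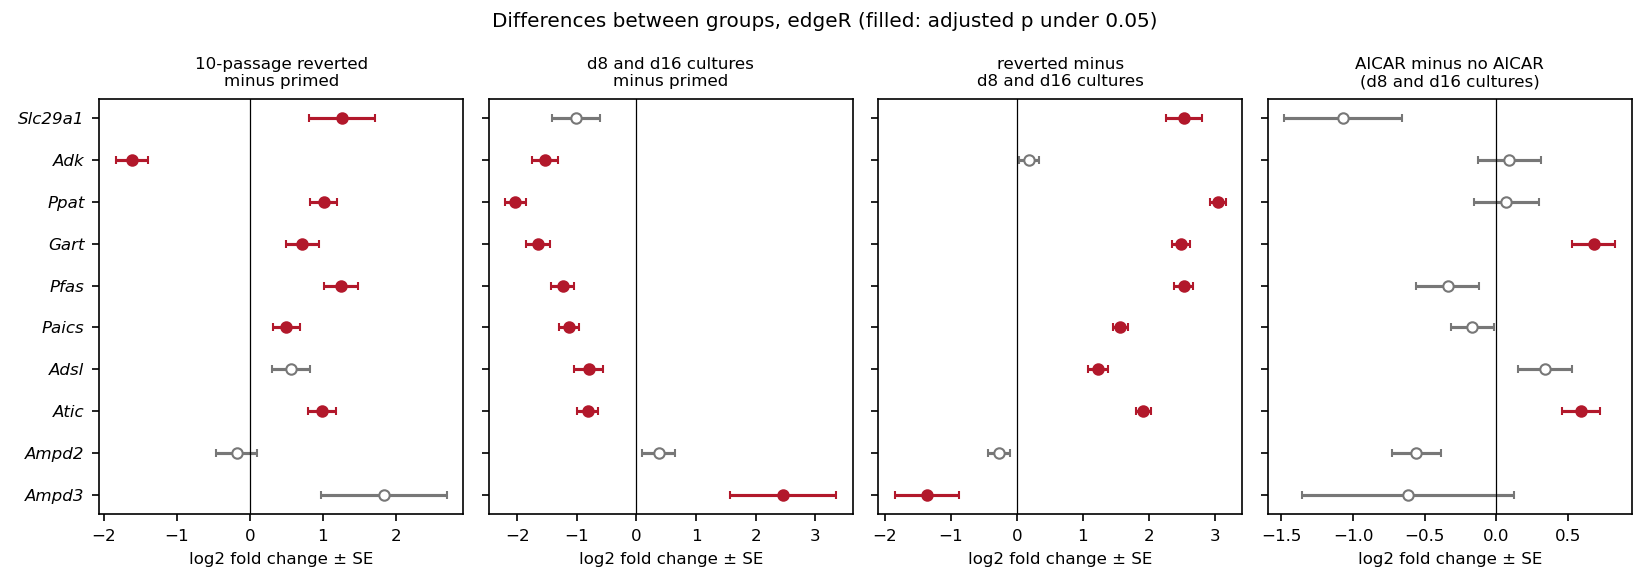
Log2 fold changes with standard errors (edgeR, linear axes that differ between panels) of the 10 genes in 4 comparisons. Filled points have an adjusted p under the threshold of 0.05. The 6 de novo genes lie below 0 in d8 and d16 cultures minus primed and above 0 in reverted cells minus these cultures, whereas with AICAR only Gart and Atic are filled.

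The d8 and d16 cultures, which had not been passaged in 2iL, were compared with primed cells. They include Basal and 2iL cultures, from which the paper obtained no reverted cells, so their mean is not a stage of the reversion. All 6 de novo genes and Adk were lower in the cultures, and for each of these 7 genes all 8 culture libraries were below both primed libraries. The share of all tested genes without overlap was not counted, and 19.4% were called lower. Ppat was at 22.8 CPM in Basal d8, 29.0 CPM in 2iL d8, 35 CPM in AICAR d8 and 19.8 CPM in AICAR+LIF d8. At d16 it was at 19.8 CPM in Basal, 15.2 CPM in 2iL, 18.1 CPM in AICAR and 15.8 CPM in AICAR+LIF. Against the primed libraries Ppat was 4.08-fold lower, with a log2 fold change of −2.03 ± 0.17 (adjusted p = 7.34e-08, edgeR). The other de novo genes were lower by less: Gart at −1.65 ± 0.20, Pfas at −1.24 ± 0.20, Paics at −1.13 ± 0.17, Atic at −0.82 ± 0.17 and Adsl at −0.80 ± 0.24 on the log2 scale. Their adjusted p-values (edgeR) ran from 4.1e-06 for Gart to 0.0119 for Adsl, and Adsl lost its call without primed Oct4GIP (−0.65, adjusted p = 0.148).

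Adk in the cultures ran from 20.6 CPM (Basal d8) to 41.8 CPM (AICAR d16), around a median of 29.6 CPM. It was 2.89-fold lower than in primed cells, at −1.53 ± 0.22 on the log2 scale (adjusted p = 2.56e-05, edgeR). Slc29a1 ran from 9.88 to 56.8 CPM and overlapped the primed range of 29.4 to 85.3 CPM, and its log2 fold change of −1.02 ± 0.40 was at an adjusted p of 0.0505 (edgeR). Single libraries set the Slc29a1 call: the adjusted p was 0.0173 without primed Oct4GIP, 0.0195 without Basal d8 and 0.00456 without Basal d16, but the log2 fold change was −0.11 without primed 129/MSM, at an adjusted p of 0.927.

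Ampd3 was higher in the cultures than in primed cells by 2.46 ± 0.89 on the log2 scale (adjusted p = 0.0344, edgeR), and the groups overlapped. The d8 libraries held 4 counts in Basal, 6 in 2iL, 10 in AICAR and 2 in AICAR+LIF, and the high levels were those of d16. Ampd3 was called under 13 of 19 alternatives. Without primed Oct4GIP, which leaves 1 primed library, its log2 fold change was 1.52. The call was lost after thinning to equal totals (adjusted p = 0.126) and with only the libraries compared (0.117, edgeR). It was also lost without the 3 libraries of lowest total (0.09), without AICAR d8 (0.068) and with line as a term (0.065, edgeR). Ampd2 ran from 71.2 to 141 CPM in the cultures and was not called. Of the 10 genes, 7 were called lower and 1 higher, against 37.5% of tested genes called in either direction and 19.4% called lower.

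Reverted cells were then compared with the d8 and d16 cultures. Each of the 6 de novo genes and Slc29a1 was higher in all 11 reverted libraries than in all 8 culture libraries. The share of all tested genes that separate in this way was not counted, and 36.7% were called higher. Ppat had a mean of 21.9 ± 6.85 CPM (SD, n = 8) in the cultures and 179 ± 15.1 CPM (n = 11) in reverted cells, 8.26-fold higher. Its log2 fold change was 3.05 ± 0.12 (adjusted p = 2.47e-14, edgeR). In the same order Pfas was at 47.7 ± 17.8 and 267 ± 27.5 CPM, 5.79-fold higher. Gart was at 73.3 ± 25.7 and 390 ± 61.4 CPM, 5.62-fold higher, and Atic at 66.9 ± 14.7 and 246 ± 26.0 CPM, 3.79-fold higher. Paics was at 187 ± 36.6 and 563 ± 85.9 CPM, 2.97-fold higher. Adsl had the smallest difference of the 6, 2.35-fold, at 58.3 ± 12.3 and 141 ± 34.0 CPM (adjusted p = 3.65e-07, edgeR).

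Slc29a1 was 5.78-fold higher in reverted cells, at 27.0 ± 16.1 CPM (SD, n = 8) in the cultures and 159 ± 36.1 CPM in reverted cells (n = 11, adjusted p = 4.24e-08, edgeR). Adk was at 29.6 ± 6.51 CPM in the cultures and 32.4 ± 8.91 CPM in reverted cells and did not pass. The lower level of Adk against primed cells was thus seen both in the cultures and in reverted cells. Ampd2 was at 106 ± 28.0 and 85.3 ± 24.0 CPM and did not pass. Ampd3 was lower in reverted cells, by −1.36 ± 0.49 on the log2 scale (adjusted p = 0.0165, edgeR), with overlapping groups. This call was lost without AICAR d8 (−0.98, adjusted p = 0.103) and without the 3 libraries of lowest total (−0.94, 0.145, edgeR). By limma it was also lost (−1.16, adjusted p = 0.0637). In this comparison 76.2% of tested genes were called in either direction and 36.7% were called higher, and a call alone sets the 10 genes little apart. The median log2 fold change was 2.2 for the 6 de novo genes and −0.08 for all genes tested. The 3 comparisons share libraries, and they are not independent of each other.

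Between 2 or 3 passages and 10 passages, none of the 10 genes was called by edgeR (3 had an unadjusted p under 0.05), where 9.35% of tested genes were called, a share that 0 of 10 does not stand apart from. The 10-passage group also holds another line and other activators, so passage cannot be told apart from these in the group as a whole. When edgeR was fitted to the compared libraries alone, 4 genes were called: Ampd3 higher (1.47, adjusted p = 0.0259), and Slc29a1 (−0.49, 0.0148), Ampd2 (−0.56, 0.0394) and Atic (−0.23, 0.0425) lower on the log2 scale. In the fit of all libraries Adk came nearest, at 38.5, 44.9, 42.5 and 36.5 CPM after 2 or 3 passages (AICAR and AICAR+LIF at 2, then at 3 passages) and a median of 28.6 CPM after 10, a log2 fold change of −0.55 ± 0.19 (adjusted p = 0.0733, edgeR). Its adjusted p was 0.0364 by DESeq2, 0.0467 by limma and 0.0359 without the 10-passage AICAR+LIF library of 129/MSM. Adk was called under only 5 of 21 alternatives, over which its log2 fold change ran from −0.68 to −0.27. After thinning to equal totals its adjusted p was 0.735 (edgeR). Ampd3 was at 1.45 to 4.94 CPM after 2 or 3 passages and at 5.10 to 17.7 CPM after 10, without overlap, and in that fit it did not pass (1.48 ± 0.63, adjusted p = 0.156, edgeR). Non-overlap of these groups over all genes was not counted. After 10 passages Adk was at 18.8 CPM (AICAR) and 19.8 CPM (AICAR+LIF) in Oct4GIP cells, and at 28.6 CPM and 38.4 CPM after the same treatments of 129/MSM cells. Paics was at 478 and 546 CPM in the Oct4GIP pair, below the values of 685 and 744 CPM in the 129/MSM pair. These differences between lines were not tested.

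The activators used for the reversion were also compared. In Oct4GIP cells of 10 passages, the AICAR libraries (with and without LIF) were set against the 3 libraries of A769662, with and without LIF, and of metformin+LIF. None of the 10 genes was called, with 1 at an unadjusted p under 0.05, and 0% of all 18739 tested genes were called by edgeR (342 at an unadjusted p under 0.05, and 2 called by DESeq2). That gene was Adk, at 18.8 and 19.8 CPM in the AICAR libraries against 23.7 CPM with A769662, 29.8 CPM when LIF was added to it and 34.8 CPM with metformin+LIF. The log2 difference was −0.61 ± 0.25 (unadjusted p = 0.0253, adjusted p = 1, edgeR), and this comparison of 2 and 3 libraries did not reach the threshold. The groups did not overlap, and how often this holds over all genes was not counted.

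**Figure D3:**
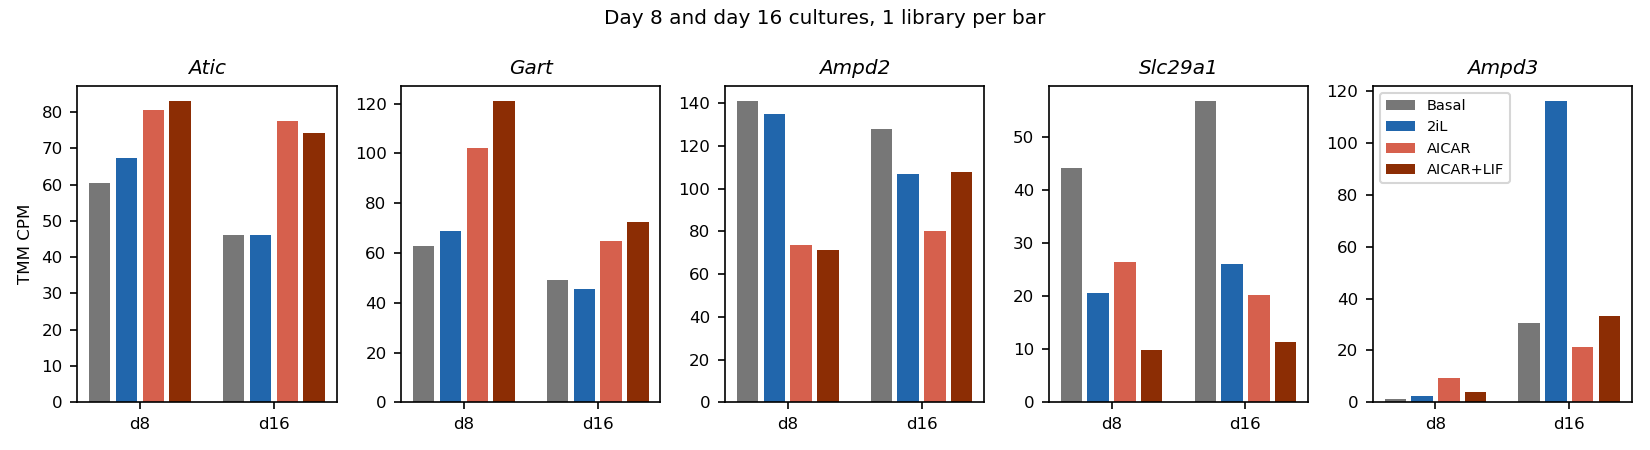
Levels of Atic, Gart, Ampd2, Slc29a1 and Ampd3 (TMM CPM, linear axes from 0) in the 8 cultures at d8 and d16. Each bar is 1 library, coloured by treatment, with no replicate and no error bar. At both days Atic and Gart are higher in the AICAR and AICAR+LIF libraries than in Basal and 2iL, and Ampd3 is highest in 2iL at d16.

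Within the 8 cultures, those that held AICAR (with or without LIF) were set against those in Basal medium or 2iL, and the fit included the day. This asks whether genes that take up, make or use AICAR and ZMP differed when AICAR was in the medium. Atic was at 60.4 CPM in Basal, 67.2 CPM in 2iL, 80.5 CPM in AICAR and 83.0 CPM in AICAR+LIF at d8. At d16 it was at 46.0, 46.1, 77.4 and 74.1 CPM in the same order. It was higher with AICAR in all 8 pairs of libraries of the same day, by 0.28 to 0.75 on the log2 scale. These pairs share libraries and are not independent of each other, and how many of all genes are higher in every pair was not counted. The fitted log2 fold change was 0.59 ± 0.13 (adjusted p = 0.031, edgeR).

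Gart behaved alike, at 63.0, 68.8, 102 and 121 CPM at d8 and at 49.0, 45.7, 64.9 and 72.3 CPM at d16 in Basal, 2iL, AICAR and AICAR+LIF. It was higher with AICAR in all 8 pairs, with a log2 fold change of 0.68 ± 0.15 (adjusted p = 0.0303, edgeR). These were the 2 genes of the 10 that were called, against 9.54% of 14026 tested genes. The other 4 de novo genes were not called, and Paics and Pfas were higher with AICAR in only 2 of 8 pairs each.

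The calls of Atic and Gart were not firm: Atic was called under 7 and Gart under 8 of 19 alternatives. After thinning to equal totals the log2 fold change of Atic was 0.27 (adjusted p = 0.484) and that of Gart 0.72 (adjusted p = 0.197, edgeR). Against Basal medium alone the adjusted p-values were 0.28 for Atic and 0.315 for Gart, and without the day term they were 0.164 and 0.213. Leaving out Basal d8, 2iL d8, AICAR d8, AICAR+LIF d8, AICAR d16 or AICAR+LIF d16 gave adjusted p-values of 0.0579 to 0.0864 for Atic and 0.0507 to 0.0892 for Gart, and Atic also lost its call without Basal d16 (0.0705). Without both AICAR libraries of d8, which had the lowest totals, the log2 fold changes were 0.69 for Atic (adjusted p = 0.128) and 0.51 for Gart (adjusted p = 0.207, edgeR). The direction was the same under all 19 alternatives for both genes. Of the 3 markers of pluripotent cells, Pou5f1 (4.17 ± 0.67, adjusted p = 0.0121) and Nanog (3.28 ± 0.82, adjusted p = 0.0416, edgeR) were called higher with AICAR. Sox2 went the other way, at −0.73 ± 0.28, and was not called. The sum of the 3 at d16 was 133 CPM in AICAR and 149 CPM in AICAR+LIF, below 316 CPM in Basal and 170 CPM in 2iL. At d8 it was 224 and 215 CPM against 176 and 227 CPM. Of 8 tested fibroblast markers, 2 were also called higher. These markers are named after their values were seen, and the part of cell makeup in the levels of Atic and Gart was not tested.

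Ampd2 was at 141 and 135 CPM in Basal and 2iL at d8 against 73.8 CPM in AICAR and 71.2 CPM in AICAR+LIF. At d16 the values were 128, 107, 80.2 and 108 CPM. Ampd2 was lower with AICAR in 7 of 8 pairs, at −0.56 ± 0.17 on the log2 scale, and did not pass (adjusted p = 0.0658, edgeR). Without 2iL d16 the adjusted p was 0.03. Slc29a1 was highest in Basal medium at both days, at 44.1 CPM and 56.8 CPM, and lowest in AICAR+LIF, at 9.88 CPM and 11.3 CPM. In 2iL it was at 20.7 and 26.1 CPM and in AICAR at 26.5 and 20.3 CPM, so that 2iL and AICAR alone lay close together. The log2 fold change with AICAR was −1.07 ± 0.41 and did not pass (adjusted p = 0.13, edgeR).

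Adk was higher with AICAR in 4 of 8 pairs and lower in the other 4. At d8 it was at 20.6, 33.6, 26.5 and 23.7 CPM and at d16 at 31.3, 30.9, 41.8 and 28.2 CPM in Basal, 2iL, AICAR and AICAR+LIF. For none of the 10 genes did the effect of AICAR differ between d16 and d8 at the threshold (edgeR interaction test, added after the data were seen), which called 38 of 14026 genes. Ampd3 had the smallest unadjusted p of the 10, at 0.0207 (adjusted p = 0.239).

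Between d8 and d16, Ampd3 changed the most of the 10 genes. Its d8 levels were 1.45 CPM in Basal, 2.49 CPM in 2iL, 9.47 CPM in AICAR and 3.95 CPM in AICAR+LIF, of which the last rests on 2 counts. At d16 the levels were 30.7 CPM in Basal, 116 CPM in 2iL, 21.5 CPM in AICAR and 33.1 CPM in AICAR+LIF. All d16 libraries were above all d8 libraries, and with treatment as a covariate the log2 fold change was 3.68 ± 0.73 (adjusted p = 0.0165, edgeR). How many of all tested genes separate in this way was not counted, and 24.4% were called in either direction. The adjusted p was 0.0706 without Basal d8 and 0.0744 without Basal d16. The summed fibroblast markers were also higher at d16 than at d8 and highest in 2iL d16 (49300 CPM, against 5470 to 18500 CPM in the other d16 libraries). The order of the other libraries differed: Basal d16 had the lowest d16 sum (5470 CPM) but more Ampd3 than AICAR d16 (sum 16400 CPM). The part of other cell types in the rise of Ampd3 was not tested.

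Gart was lower at d16 than at d8 by −0.58 ± 0.17 on the log2 scale (adjusted p = 0.0455, edgeR), and it lost this call when any 1 of the 8 libraries was left out (adjusted p = 0.0785 to 0.161). Pfas was at 57.5, 78.0, 59.6 and 47.4 CPM at d8 and at 51.3, 28.1, 31.8 and 27.5 CPM at d16, a log2 fold change of −0.82 ± 0.24 (adjusted p = 0.0501, edgeR). It passed without Basal d8 (0.0414) and without Basal d16 (0.0434). In all, Ampd3 (higher) and Gart (lower) were the 2 called genes of 10, against 24.4% of tested genes.

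**Figure D4:**
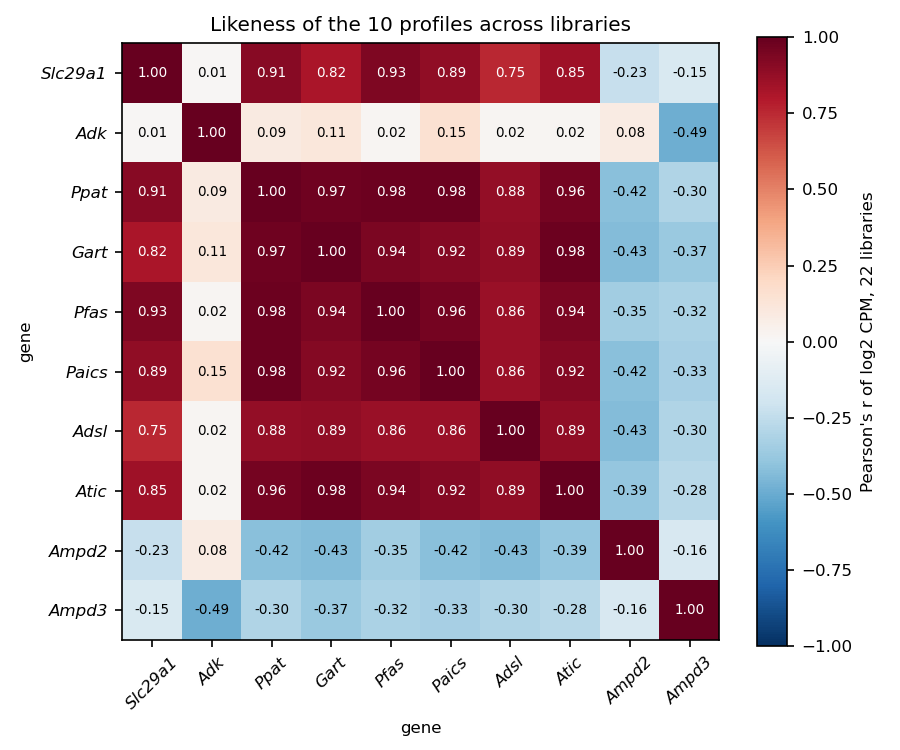
Pearson's r of log2 CPM between the 10 genes over the 22 libraries, by colour and number. The 6 de novo genes form 1 block with r of at least 0.86, Slc29a1 lies near it, and Adk, Ampd2 and Ampd3 lie apart.

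Across the 22 libraries the 6 de novo genes shared 1 profile. Over their 15 pairs, Pearson's r of log2 CPM ran from 0.86 to 0.98 with a median of 0.94. Slc29a1 had an r of 0.88 with their mean profile, Adk 0.07, Ampd2 −0.42 and Ampd3 −0.33. The points share lines and states, and most of the likeness lay between groups: once each group's mean was taken away, r over the 15 pairs ran from −0.42 to 0.74 with a median of 0.03 (21 libraries). Of 11719 other genes with a mean of at least 10 CPM, those with the highest r to the de novo profile were Nat10 (0.993), Gm9531 (0.991), Tcof1 (0.99), Ppan (0.988) and Lig1 (0.986). Nat10 encodes an RNA acetyltransferase of the nucleolus, Tcof1 a nucleolar protein of ribosomal RNA synthesis, Ppan a ribosome biogenesis factor and Lig1 the replicative DNA ligase.

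**Figure D5:**
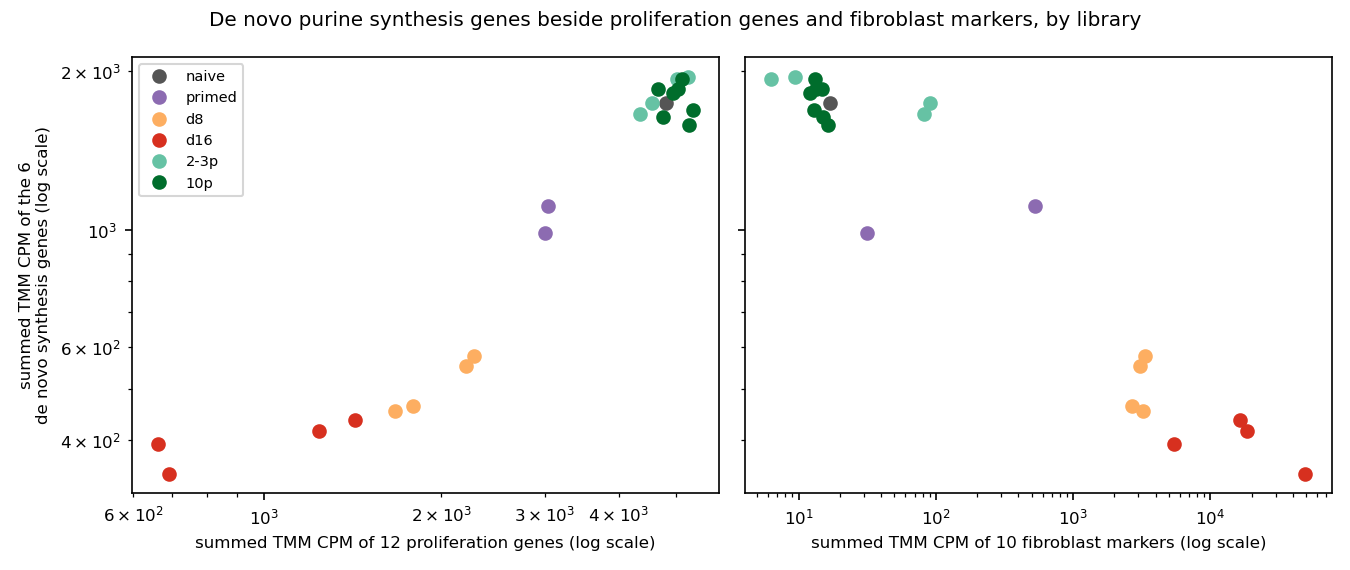
Summed level of the 6 de novo genes (vertical, TMM CPM) against the summed level of 12 proliferation genes (left) and of 10 fibroblast markers (right) in each of the 22 libraries, on log axes, coloured by group. The d8 and d16 libraries lie at the low end for the de novo and proliferation sums and at the high end for the fibroblast sum.

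The sum of the 6 de novo genes was 989 and 1110 CPM in the primed libraries, 454 to 577 CPM at d8, 346 to 437 CPM at d16, 1660 to 1950 CPM after 2 or 3 passages and 1580 to 1930 CPM after 10. The naive library was at 1740 CPM. A list of 12 proliferation genes moved in the same order, at 3000 and 3040 CPM in primed cells, 1670 to 2270 CPM at d8, 663 to 1430 CPM at d16 and 4350 to 5340 CPM in reverted cells. Of these 12, all were called higher in reverted cells than in cultures, against 36.7% of all tested genes. Their median log2 fold change was 1.90 beside 2.2 for the de novo genes. In cultures against primed cells 11 were called lower (median −1.22 beside −1.18), against 19.4% of all tested genes. After 10 passages against primed cells 7 were called higher (median 0.88 beside 0.86), against 16.7% of all tested genes. With AICAR, 4 of the 12 were called higher (median 0.50), where 9.54% of all tested genes were called in either direction. At d16 the sum of the 12 was 1430 CPM in AICAR and 1240 CPM in AICAR+LIF, against 663 CPM in Basal and 692 CPM in 2iL. At d8 the sums overlapped, at 2200 and 1790 CPM against 1670 and 2270 CPM. The part of proliferation, and of the share of fibroblast-like cells, in the levels of the de novo genes was not tested.

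The rest of the purine pathway was read from a list of 9 symbols around the de novo genes, of which 7 were found and tested. In reverted cells against cultures 6 were called higher and 1 lower, with a median log2 fold change of 0.74, where 36.7% of all tested genes were called higher and 76.2% in either direction. Prps1, which makes the ribose donor PRPP, was higher by 2.10 ± 0.16, Impdh2, the gate to guanine nucleotides, by 1.60 ± 0.16 and Adss, which starts the branch from IMP to AMP, by 1.45 ± 0.12 on the log2 scale. Adssl1, the muscle form of the same enzyme, was lower by −2.17 ± 0.37 (adjusted p = 2.41e-05, edgeR). With AICAR, Impdh2 (0.84 ± 0.17, adjusted p = 0.0238) and Adss (0.56 ± 0.13, adjusted p = 0.0313, edgeR) were called higher. The other 5 of the 7 were not called, and 9.54% of all 14026 tested genes were called in this comparison. Against Basal alone, 0 of all tested genes were called.

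Salvage and nucleotide conversion were read from 26 genes. Of these, 23 were tested in reverted cells against cultures, of which 9 were called higher, 5 lower and 9 were not called, with a median log2 fold change of −0.02 against −0.08 for all genes. These counts do not set the list apart from the 76.2% called and 36.7% called higher over all genes. Hprt, which salvages hypoxanthine and guanine, was at 30.1 ± 9.83 CPM (SD, n = 8) in cultures and 108 ± 20.4 CPM (n = 11) in reverted cells, a log2 fold change of 1.95 ± 0.15. Ak3, a mitochondrial adenylate kinase family member, was at 90.5 ± 40.4 and 3.76 ± 1.52 CPM, a log2 fold change of −4.48 ± 0.23, and Nt5m, a mitochondrial nucleotidase, was at 18.4 ± 7.40 and 4.0 ± 1.38 CPM. Ak5 was at 6.02 ± 6.34 CPM in cultures and 0.0743 CPM in reverted cells. Nt5e, the ecto-nucleotidase CD73 that makes adenosine outside the cell, was the only gene of this list called with AICAR, higher by 2.29 ± 0.46 on the log2 scale (adjusted p = 0.0232, edgeR). That comparison called 9.54% of all tested genes. It called 0 genes against Basal alone or without AICAR d8 and AICAR+LIF d8, so the Nt5e call was not firm.

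Among the other 6 nucleoside transporter genes, 5 were tested in reverted cells against cultures, with 1 called higher and 2 lower. Slc28a1, a concentrative transporter, had a mean of 49.6 ± 8.88 CPM in reverted cells and was at 29.5 CPM in the naive library, 5.55 CPM in primed cells and 0.039 CPM in cultures, where the d8 libraries had no count. Slc29a4 and Slc29a3 were lower in reverted cells, by −1.79 ± 0.37 and −1.08 ± 0.16 on the log2 scale. Slc29a4 was also the only one of 3 tested transporters called with AICAR, lower by −1.71 ± 0.45 (adjusted p = 0.0479, edgeR). With AICAR 9.54% of all tested genes were called, and the call of Slc29a4 was lost in the same settings as that of Nt5e. A list of 9 pyrimidine genes held the salvage kinases Uck1 and Uck2 beside genes of synthesis and conversion. In reverted cells against cultures 6 of the 9 were called higher, Uck2 among them, and 3 lower, Uck1 among them, with a median log2 fold change of 1.26 and the same 76.2% called over all genes. Umps was higher by 2.65 ± 0.27, Tyms by 2.23 ± 0.21, Cad by 1.76 ± 0.18 and Dhodh by 1.38 ± 0.17.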

How the data were processed

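Per the study's methods, the authors sequenced stranded mRNA libraries as single reads, aligned them with Bowtie2 2.2.5 to Ensembl cDNA and ncRNA sequences of GRCm38 and deposited whole counts per gene and per transcript. The strand setting of the counting is not given in the sources used here. Gene counts were used, and 0 columns of per-sample values were left out. Transcript counts summed to the gene counts of all 10 genes in all 22 libraries. They were not otherwise used, nor was the deposited number of detected genes.

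Groups came from the labels. Differences in counts were tested by edgeR 4.0.16 (R 4.3.3, glmQLFit and glmQLFTest, TMM factors, filterByExpr, Benjamini-Hochberg adjustment over all tested genes, threshold 0.05), in 1 model of all 22 libraries or, for AICAR and for day, of the 8 cultures with day or treatment as a covariate. The fits were checked on simulated counts with known changes, which were larger than most of those reported here. No minimum recovery was required of the comparison of activators. CPM are TMM-scaled, and log2 CPM used 0.5 added to each count. Where nothing says that libraries came from separate cultures, p-values measure only the spread between these libraries. Alternatives used DESeq2 1.42.0, limma 3.58.1, other filters, scalings, covariates and sets of libraries, thinning to 438771 counts, and libraries left out 1 at a time.

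All 10 genes are named. From each list, up to 4 called genes with the greatest change are named, and the 5 most like genes by r. The genes and lists were chosen with earlier results of these data known. Positions are from GENCODE M21 (GRCm38). Python 3.11.15 and matplotlib 3.10.9 were used.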

Additional observations from a re-analysis of the deposited data

Results flagged for a closer look

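In groups of 4 to 7 libraries, 40 sets of values (10 genes in 4 groups) were examined for a library far from the others, and chance alone gives about 1 such library in 20 sets. Ampd3 in 2iL d16 was at 116 CPM, while the other 3 libraries of d16 were at 21.5 to 33.1 CPM. Slc29a1 after 10 passages was at 185 CPM in the AICAR library of 129/MSM, while the other 6 libraries were at 114 to 138 CPM.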

How the results depend on the processing

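Of 881 refits of single genes (those called in some setting or with an unadjusted p under 0.05), none changed direction, 68 lost a call and 32 gained one. The number of the 10 genes called stayed within 1.5 times in every alternative other than leaving out 1 library for reverted against cultures (7 to 8, main value 8), cultures against primed (7 to 9, main value 8) and 10 passages against primed (5 to 7, main value 7). For 10 passages against 2 or 3 passages, where edgeR called 0, it was 1 by DESeq2, by limma, with at least 10 counts in every library and with Oct4GIP libraries only, and 4 when only the libraries compared were fitted. For AICAR, where the main value was 2, it was 1 after thinning and with d16 libraries only. It was 0 without the day term, against Basal alone and, in a setting chosen after seeing the data, without AICAR d8 and AICAR+LIF d8, with 4, 2 and 4 genes at an unadjusted p under 0.05. For d16 against d8, where the main value was 2, it was 0 with at least 10 counts in every library (3 at an unadjusted p under 0.05), where 8 of the 10 genes were tested and Ampd3, with d8 counts of 2 to 10, was removed, 1 without the treatment term and without those 2 libraries, and 5 with all 22 libraries. With 1 library left out, the number was 4 to 7 for 10 passages against primed, 0 to 1 for 10 against 2 or 3 passages, 7 to 8 for reverted against cultures, 7 to 9 for cultures against primed, 0 to 3 for AICAR and 1 for d16 against d8 each time.

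Over all genes, at least 10 counts in every library lowered the calls to 2878 of a main 6862 (10 passages against primed), 877 of 1753 (10 against 2 or 3 passages), 5895 of 14275 (reverted against cultures), 3524 of 7033 (cultures against primed), 789 of 1338 (AICAR) and 2214 of 3423 (d16 against d8), with fewer genes tested. Thinning gave 3523, 617, 3905, 719 and 1760 calls in these comparisons in the same order, reverted against cultures apart. Fitting only the libraries compared gave 3002 for passages and 4597 for cultures against primed. For AICAR the calls were 2140 by DESeq2, 3143 without a filter, 2645 with all 22 libraries, 889 at d16 only, 37 without the day term and 0 against Basal alone or without the 2 AICAR libraries of d8 (2778 and 3010 at an unadjusted p under 0.05). Without TMM factors, 54.5% of the AICAR calls were higher, against 37.2% with them, and the d16 calls were 48.4% higher against 59.0%. Without the factors the median of all genes moved from −0.01 to −0.14 for d16 and to −0.11 for 10 passages against primed. All 22 libraries gave 5602 calls for d16. With 1 library left out, the calls over all genes were 4463 to 6765, 936 to 1847, 13746 to 14194, 4113 to 7263, 245 to 2660 and 1148 to 2697 in the order above. The causes were not tested. No paired analysis was possible because the labels carry no replicate numbers, so no fit had a replicate block, though treatment and day, which match the cultures, were terms of the fits. With line as a term, added after seeing the data, 7, 0, 8 and 7 of the 10 genes were called in the first 4 comparisons. Reading only the 250 bases before each start found the same 4 and 2 genes with a motif. In the libraries of lowest total, 438771 and 956357 counts, 3 counts are 6.84 and 3.14 CPM.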
